A study of Mus musculus with 16 samples.

Results

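Hk2, Pfkm, Aldoa, Mdh2, Cpt2 and Ces1d encode enzymes that bring glucose or lipid into use as fuel in muscle. They were taken by name as a set of 6 genes out of the 831 for which the deposited table gives values. RNA was sequenced from the whole tibialis anterior of 30-day-old mice. There are 4 groups with 4 libraries each, 16 in all: mdx/miR-133b-/- (genotype mdx-/-;miR-133b-/-), mdx (mdx-/-), miR-133b-/-, and Control (wild type). The mdx mouse carries a mutation of Dmd, the dystrophin gene, in all tissues and models Duchenne muscular dystrophy. For strain background, sex and the way in which miR-133b was removed, nothing is given in the sources used here.

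A muscle fibre traps glucose as glucose 6-phosphate, breaks it down through glycolysis, and burns the pyruvate in the citrate cycle of its mitochondria. Fatty acids, freed from stored or circulating esters, cross into the mitochondria as carnitine esters and are oxidised there. The tibialis anterior is a fast muscle that leans on glycolysis, and miR-133b is a muscle microRNA, made from a locus on chromosome 1 and close in sequence to miR-133a, which has the same seed.

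The microRNA missing from 2 of the groups is shown because its seed, bases 2 to 8 in capitals, is what it pairs with in a messenger RNA. The sequence is that of RefSeq (GRCm38.p6, chr1:20682834-20682855, plus strand).
mmu-miR-133b-3p: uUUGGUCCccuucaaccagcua
The DNA letters that pair with the whole seed are GGACCAA, and those that pair with bases 2 to 7 are GACCAA. Both were searched on the sense strand in the annotated 3′ UTR of 1 transcript per gene, and each 7-base match also holds a 6-base match. None of the 6 genes had the 7-base match, against 61 (7.91%) of the 771 listed genes with an annotated 3′ UTR. Hk2 had 2 matches to GACCAA and the others had none, against 194 of the 771 genes (25.2%) with at least 1. The Hk2 3′ UTR is 2285 bases long, and the median of the listed genes is 1118. Both stretches are given with the match in capitals (GRCm38, minus strand).
Hk2, chr6:82726061-82726090: tcgagagaactcGACCAAacctcaggggcg
Hk2, chr6:82725699-82725728: tcaaaagagaaaGACCAAgagaaagctcag
A match describes the letters of this window and does not show binding.

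The authors multiplied the reads of each library by a factor of its own, and the products are called scaled reads here. Reads in the listed genes numbered 2356990 to 6000033 per library before scaling, and the full depth is unknown. The listed genes are a selection: in each of them the mdx/miR-133b-/- and miR-133b-/- means differ by 1.72-fold or more. That comparison is therefore given as values with no test, and every comparison that uses either group shares libraries with the selection. Only mdx against Control shares none. Dmd and miR-133b were not analysed here, so no value checks the genotypes. Libraries were placed by the code in each title, whose letters match the group. The description field of 14 samples names the code of another sample.

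Hk2, hexokinase 2 (chromosome 6, 82725025 to 82774454, GRCm38), is the muscle hexokinase that phosphorylates glucose once it has entered the fibre. It had 3264, 3413, 3529.9 and 4604 scaled reads in the mdx/miR-133b-/- libraries, against 3435, 3337.5, 4676 and 4630.0 in the mdx libraries. It had 6193, 8686, 8699 and 6089 scaled reads in miR-133b-/-, against 6714, 4869, 6912 and 12414 in Control. Every library with the mdx mutation lay below every library without it, while the 2 mdx groups overlapped each other, as did the other 2. Group means were 3703 ± 611 in mdx/miR-133b-/-, 4019.9 ± 733 in mdx, 7417 ± 1474 in miR-133b-/- and 7728 ± 3257 in Control (SD, n = 4 each). Control library 4 stood highest of all 16.

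Pfkm, the muscle phosphofructokinase (chromosome 15, 98092589 to 98132451), catalyses the committed step of glycolysis. Its scaled reads were 32644, 29806, 27169.7 and 29464 in mdx/miR-133b-/-, against 42404, 40638, 40222 and 40782 in mdx. They were 45809, 47249.8, 73312 and 57143 in miR-133b-/-, against 67065, 37279, 46403 and 47117 in Control. The mdx/miR-133b-/- libraries were the 4 lowest of the 16, Control library 2 came next above them, and the mdx libraries lay inside the Control range. The means were 29771 ± 2245 in mdx/miR-133b-/-, 41011.5 ± 958 in mdx, 55878.5 ± 12667 in miR-133b-/- and 49466 ± 12558 in Control. Neighbours in the order of the means overlapped, except mdx/miR-133b-/- and mdx. The 4 mdx libraries were within 1.05-fold of each other.

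Aldoa, aldolase A (chromosome 7, 126795234 to 126800751), splits the sugar bisphosphate made by phosphofructokinase. Its scaled reads were 71570.4, 54779, 45062 and 46757 in mdx/miR-133b-/-, against 64779, 69019, 86184 and 69085 in mdx. The miR-133b-/- libraries had 109991, 79909.6, 124936 and 147932, against 120587, 83887, 93139 and 121032 in Control. Each group overlapped its neighbour in the order of the means: mdx/miR-133b-/- library 1 was above mdx library 1, and mdx library 3 was above Control library 2. The means were 54542 ± 12117 in mdx/miR-133b-/-, 72266.5 ± 9495 in mdx, 115692 ± 28506 in miR-133b-/- and 104661 ± 19026 in Control.

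Mdh2, the mitochondrial malate dehydrogenase (chromosome 5, 135778480 to 135790398), serves both the citrate cycle and the malate-aspartate shuttle, which carries the electrons of glycolysis into mitochondria. It had 4399, 4562, 3744 and 3212 scaled reads in mdx/miR-133b-/-, against 3480.0, 3450.1, 4054 and 3812 in mdx. It had 8868, 6459, 7552 and 5575 in miR-133b-/-, against 4587, 4354.5, 4646 and 5007 in Control. The miR-133b-/- libraries were the 4 highest of the 16, a pattern that none of the other 5 enzymes showed. The means were 3979 ± 621 in mdx/miR-133b-/-, 3699 ± 288 in mdx, 7114 ± 1422 in miR-133b-/- and 4649 ± 270.1 in Control. All mdx libraries were below all Control libraries, and mdx/miR-133b-/- overlapped both.

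Cpt2, carnitine palmitoyltransferase 2 (chromosome 4, 107903981 to 107923610), turns long-chain acylcarnitines back into acyl-CoA inside the mitochondrion, ready for oxidation. Its scaled reads were 556, 488, 405 and 531 in mdx/miR-133b-/-, against 597, 618, 644 and 634 in mdx. There were 904, 508, 951 and 1304 in miR-133b-/-, against 885, 813, 909 and 876 in Control. The mdx/miR-133b-/-, mdx and Control groups followed one another with no overlap, whereas miR-133b-/- ran from inside the mdx/miR-133b-/- range to the highest value of all. The means were 495 ± 66.0 in mdx/miR-133b-/-, 623 ± 20.4 in mdx, 917 ± 326 in miR-133b-/- and 871 ± 40.9 in Control. The low miR-133b-/- library 2 also had the lowest sum of 4 fast fibre markers outside mdx/miR-133b-/-, 314869 scaled reads, against 618271 to 730433 in the other miR-133b-/- libraries. The part of that in the Cpt2 value was not tested.

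Ces1d, a carboxylesterase of the endoplasmic reticulum (chromosome 8, 93166068 to 93197838), hydrolyses lipid esters and is known in mice mainly from liver and fat. It had 11.9, 7.29, 22.5 and 38.2 scaled reads in mdx/miR-133b-/-, against 36.8, 8.56, 24.8 and 6.74 in mdx. It had 137, 101, 391 and 155 in miR-133b-/-, against 142, 158, 106 and 104 in Control. The 8 libraries with the mdx mutation were all far below the other 8, and the 2 groups on each side overlapped. The means were 19.98 ± 13.7 in mdx/miR-133b-/-, 19.2 ± 14.3 in mdx, 196 ± 132 in miR-133b-/- and 128 ± 26.7 in Control. Behind these values stand 11 to 58 unscaled reads in mdx/miR-133b-/-, 12 to 67 in mdx, 137 to 532 in miR-133b-/- and 140 to 250 in Control, so its precision is the lowest of the 6. None of the 7 adipocyte markers is among the listed genes, so a part of fat cells was not tested.

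**Figure D1:**
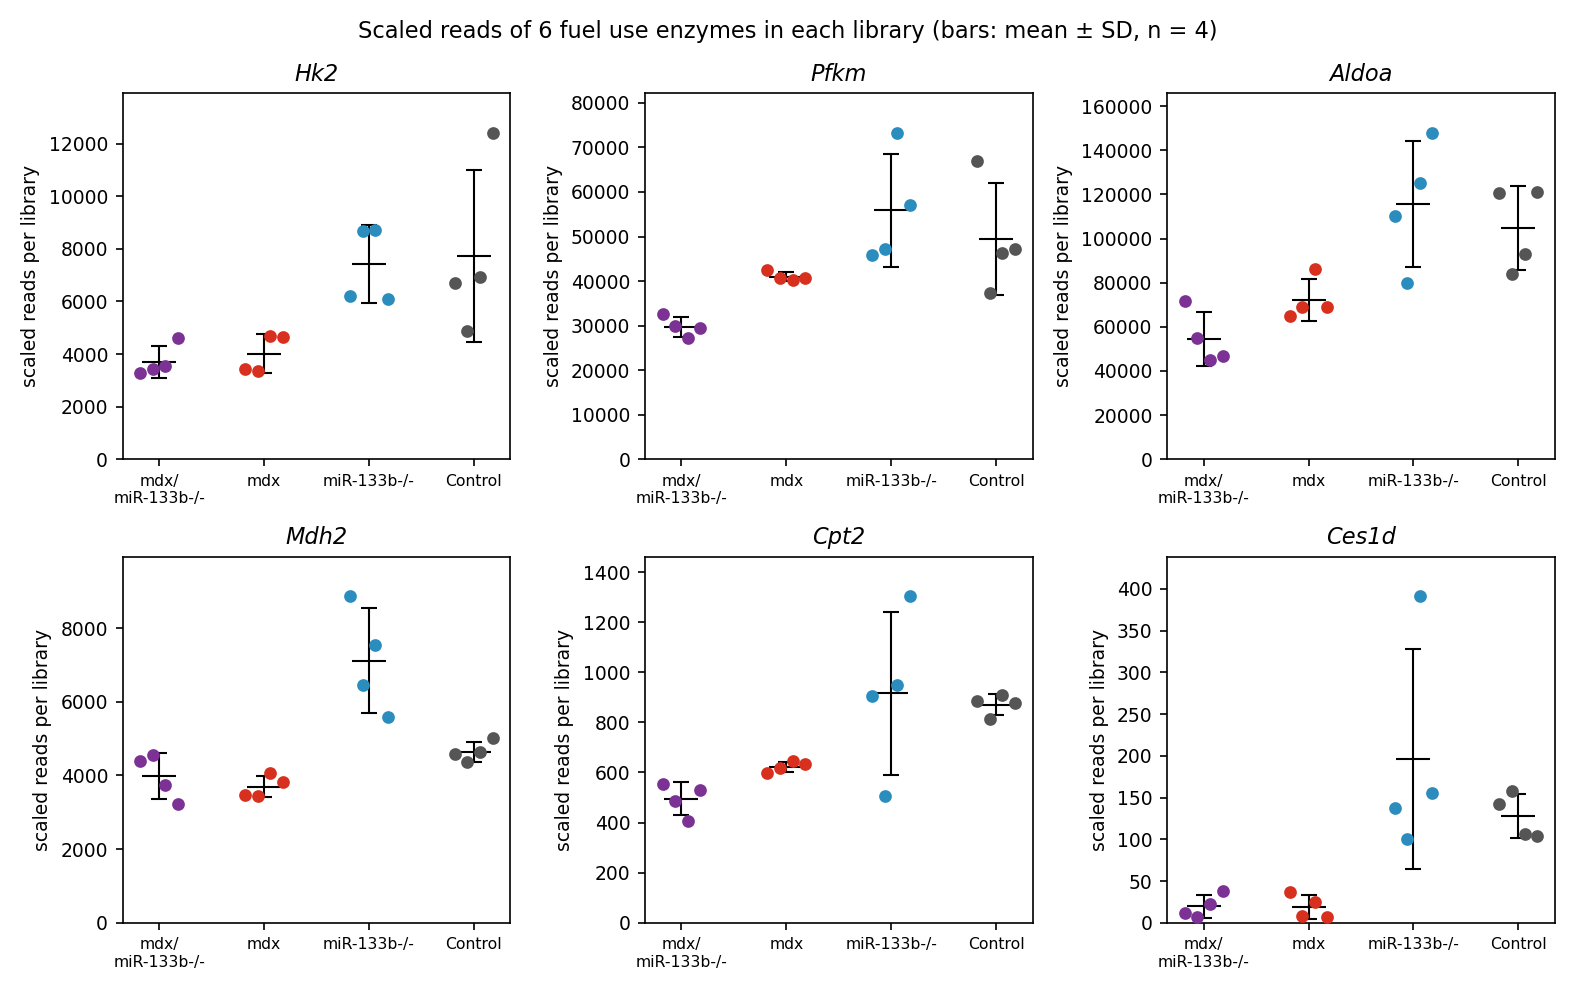
Scaled reads (linear axes from 0) of each enzyme in each of the 16 libraries, by group; points are libraries and bars are the mean ± SD (n = 4). Hk2 and Ces1d are lower with the mdx mutation than without it in every library, Pfkm and Cpt2 are lowest in mdx/miR-133b-/-, and Mdh2 is highest in miR-133b-/-.

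The genes differ widely in level. Per kilobase of transcript, Control averaged 69266 ± 12592 scaled reads for Aldoa, 17182 ± 4362 for Pfkm, 3193 ± 186 for Mdh2, 1402 ± 591 for Hk2, 367 ± 17.2 for Cpt2 and 63.7 ± 13.3 for Ces1d. This order held in all 16 libraries. The spread around each gene's own mean over the 16 libraries was 0.39 to 0.56 on the log2 scale (root mean square) for 5 of them and 1.73 for Ces1d.

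The 4 comparisons of groups were tested with limma on log2(scaled reads + 1), with p-values adjusted by the Benjamini-Hochberg method over all 831 genes and called at 0.05. Whether each library is from its own animal is not in the labels, so the p-values speak only of the spread among these samples and may reflect technical spread. In whole muscle, fewer cells of a type and less RNA per cell cannot be told apart. The comparisons with Control share the same 4 Control libraries.

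The first comparison asks what accompanied the dystrophin mutation while miR-133b was present. In mdx against Control, 3 of the 6 enzymes fell and none rose, where 21.7% of the listed genes were called lower (180 genes) and 44.5% higher (370 genes). With relative log expression factors, taken from the listed genes, which moved the median listed gene by -0.36, 270 were called lower and 260 higher. The median log2 difference was -0.50 for the 6 and 0.44 for all listed genes. All 6 were listed as lower in mdx/miR-133b-/- than in miR-133b-/- (-3.27 to -0.82), groups that also differ by the mdx mutation. Though no library is shared, the contrast of these medians is thus not independent of the selection. Ces1d fell by 2.95 on the log2 scale, or 7.72-fold (SE 0.54, limma adjusted p = 0.000222), and no listed gene had a lower log2 difference. Hk2 fell by 0.87, or 1.83-fold (SE 0.24, adjusted p = 0.00375), lower in 4 of 4 mdx libraries than in any Control library. Without the high Control library 4 the Hk2 difference was -0.62 (adjusted p = 0.019). Aldoa fell by 0.52, or 1.44-fold (SE 0.21, adjusted p = 0.031), although mdx library 3 lay above Control library 2.

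The call for Aldoa was the least firm of the 3. It was lost when a trend with GC content and transcript length was removed from each library (-0.29, adjusted p = 0.0963), and when any one of mdx libraries 1, 2 or 4 or Control libraries 1 or 4 was left out (adjusted p 0.064 to 0.0916). Cpt2 stood at -0.48 (95% interval -0.93 to -0.03, adjusted p = 0.0563) and Mdh2 at -0.33 (-0.68 to 0.02, adjusted p = 0.0858), neither passing. Both had no overlap between mdx and Control libraries, a separation in this direction that 24.2% of the listed genes showed. Pfkm was at -0.24 (-0.62 to 0.15, adjusted p = 0.252), an interval that also takes in the -0.52 of Aldoa. With the relative log expression factors, Pfkm (-0.60), Mdh2 (-0.69) and Cpt2 (-0.84) were also called lower. The main fit shares 1 spread over all groups, and the log2 SD of Cpt2 was 0.57 in miR-133b-/-, 0.05 in mdx and 0.07 in Control. A fit on mdx and Control libraries alone called Cpt2 (limma adjusted p = 0.00205) and Mdh2 (0.0151), but not Pfkm (0.183). With the GC and length trend removed, Cpt2 (-0.40, limma adjusted p = 0.084) and Mdh2 (-0.12, 0.529) were not called.

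**Figure D2:**
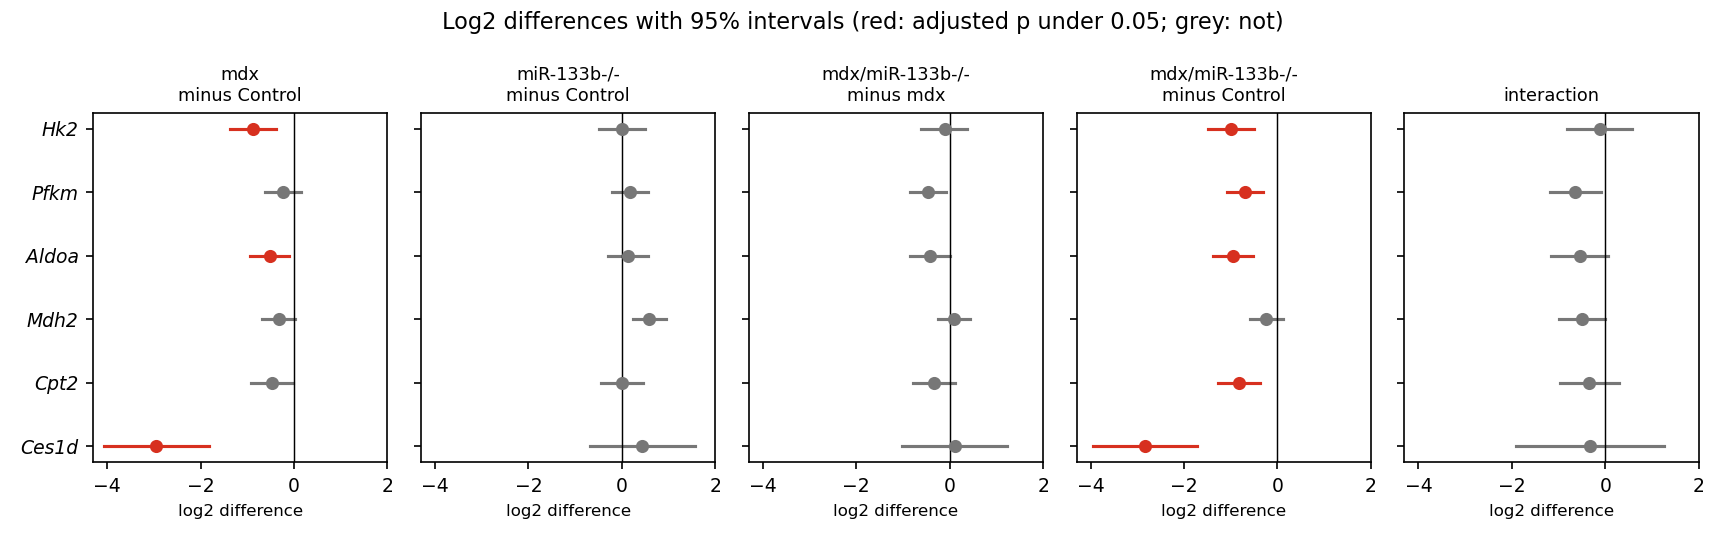
Log2 difference of each enzyme (point) with its 95% interval (line) in the 4 tested comparisons and the interaction; red marks a limma adjusted p under 0.05. Ces1d, Hk2 and Aldoa are red in mdx minus Control, 5 enzymes in mdx/miR-133b-/- minus Control, and none elsewhere.

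Cell type markers moved in the same comparison. Of 10 fast fibre markers 4 are listed (Myh4, Actn3, Pvalb and Ckm), and Myh4 and Ckm fell; their sum was 375355 to 552424 scaled reads in mdx, against 592292 to 730110 in Control. Of 12 macrophage markers 9 are listed and 8 rose, with a sum of 5356 to 8227 in mdx, against 1375 to 1844 in Control. The 6 listed of 8 regenerating fibre markers and the 4 listed of 8 slow fibre markers all rose, as did 3 listed of 5 fibro-adipogenic markers, while Flt1, the 1 listed of 6 endothelial markers, fell. Markers that did not pass the selection have no value here, so these counts cover listed markers only. The part of these shifts in the enzyme values was not tested.

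The next comparison asks what loss of miR-133b accompanied in dystrophic muscle. In mdx/miR-133b-/- against mdx none of the 6 enzymes was called, where 19.5% of the listed genes were. Pfkm showed the largest difference of the 6, 1.38-fold lower in mean, at -0.46 on the log2 scale (95% interval -0.85 to -0.08, limma adjusted p = 0.0862). All 4 mdx/miR-133b-/- libraries were below all 4 mdx libraries for Pfkm and for Cpt2 (-0.34, interval -0.79 to 0.11, adjusted p = 0.297), which 16.2% of the listed genes showed. A fit on the libraries of these 2 groups alone called Pfkm (-0.46, adjusted p = 0.0177), with a spread that is very small in mdx. For Pfkm and Cpt2 the miR-133b-/- mean was less than 1.72-fold above the mdx mean. Low mdx/miR-133b-/- values thus took part in their listing, so neither their p-values nor their separation is independent of the selection.

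Aldoa was at -0.42 (-0.85 to 0.01, adjusted p = 0.163), and at 0.02 once the trend with GC content and length was removed. The same limit of the selection holds for Aldoa, whose miR-133b-/- mean was less than 1.72-fold above its mdx mean. Hk2 (-0.11, interval -0.61 to 0.38) and Mdh2 (0.09, -0.25 to 0.44) had intervals on both sides of 0. Under the alternatives the Mdh2 difference ran from 0.02 to 0.47, with a smallest limma adjusted p of 0.0706. The interval of Ces1d, at 0.11 (-1.01 to 1.23), spans more than a halving and more than a doubling. The sum of the 4 fast fibre markers was 256312 to 320334 scaled reads in mdx/miR-133b-/-, against 375355 to 552424 in mdx, and Actn3, Pvalb and Ckm fell. In each of the 4 the miR-133b-/- mean was less than 1.72-fold above the mdx mean. Low mdx/miR-133b-/- values thus took part in the listing of these markers, so their falls and the lower sum are not independent of the selection. No listed macrophage, slow, regenerating or fibro-adipogenic marker was called. The part of the fast fibre markers in the enzyme values was not tested.

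With both changes against neither, 5 of the 6 enzymes fell. The listed genes were selected for differing between mdx/miR-133b-/- and miR-133b-/-, and none was called between miR-133b-/- and Control. A difference of mdx/miR-133b-/- from Control was thus favoured by the selection, so its calls and p-values are not independent of it. In mdx/miR-133b-/- against Control 36.9% of the listed genes were called lower (307) and 54.3% higher (451), or 332 and 323 genes with relative log expression factors, which shifted the median by -0.40; with the deposited factors the median was -0.89 for the 6 and 0.73 for all. Ces1d fell by 2.84, or 7.14-fold (SE 0.54, limma adjusted p = 0.000164). Hk2 fell by 0.99, or 1.98-fold (SE 0.24, adjusted p = 0.000921), and Aldoa fell by 0.95, or 1.93-fold (SE 0.21, adjusted p = 0.000454). Cpt2 fell by 0.82, or 1.77-fold (SE 0.22, adjusted p = 0.00189), and Pfkm fell by 0.70, or 1.63-fold (SE 0.18, adjusted p = 0.00186). In these 5 every mdx/miR-133b-/- library was below every Control library, as in 33.5% of the listed genes.

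Mdh2 was at -0.24 (interval -0.59 to 0.11, adjusted p = 0.179), with overlapping groups. Its direction turned to 0.36 (adjusted p = 0.045) when the trend with GC content and length was removed, and that alternative also ended the Aldoa call (-0.27, adjusted p = 0.101). With relative log expression factors Mdh2 was called lower (-0.64, adjusted p = 0.00634). All 4 listed fast fibre markers fell in the same comparison, and all 9 listed macrophage markers rose.

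In muscle with dystrophin no listed gene was called with loss of miR-133b. In miR-133b-/- against Control limma called 0% of the 831 genes, with 84 at an unadjusted p under 0.05, and limma-voom on the unscaled reads also called 0. Mdh2 had the smallest p of the 6: it was 1.51-fold higher in mean, at 0.59 on the log2 scale (SE 0.17, 95% interval 0.24 to 0.94, unadjusted p = 0.00204, adjusted p = 0.283). It was higher in 4 of 4 miR-133b-/- libraries than in any Control library, which 2.77% of the listed genes showed. For Mdh2, mdx/miR-133b-/- was only 1.18-fold below Control, less than the 1.72-fold by which listed genes differ from miR-133b-/-. The high miR-133b-/- values thus took part in its listing, so neither its p nor its separation is independent of the selection. Under the alternatives the Mdh2 difference ran from 0.48 to 0.75 and its adjusted p from 0.0548 to 0.6. Hk2 (0.01, interval -0.49 to 0.50), Pfkm (0.18, -0.20 to 0.57), Aldoa (0.13, -0.30 to 0.56) and Cpt2 (-0.00, -0.45 to 0.45) had overlapping groups. Ces1d was at 0.44 with an interval from -0.68 to 1.56, and at 0.04 without miR-133b-/- library 3, its highest.

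The interaction, the mdx/miR-133b-/- minus mdx difference less the miR-133b-/- minus Control difference, tests whether loss of miR-133b went with another change in dystrophic muscle than in muscle with dystrophin. None of the 6 was called, against 8 of the listed genes (0.963%), with 172 at an unadjusted p under 0.05. Their values were -0.65 for Pfkm (95% interval -1.19 to -0.10, limma adjusted p = 0.188), -0.55 for Aldoa (-1.16 to 0.06), -0.50 for Mdh2 (-0.99 to -0.01, adjusted p = 0.238), -0.34 for Cpt2, -0.32 for Ces1d and -0.12 for Hk2. Their median was -0.42, and that of all listed genes 0.02. The interaction also equals the mdx/miR-133b-/- minus miR-133b-/- difference less the mdx minus Control difference. The first of these is the one by which genes were listed, and it ran from -3.27 to -0.82 in the 6 enzymes. The selection thus favoured values below 0 for them, so their median and p-values are not independent of it. Leaving out miR-133b-/- library 2 raised the calls over all genes to 110, with Pfkm at -0.72 (adjusted p = 0.0644) and Cpt2 at -0.60 (adjusted p = 0.0882), still not called.

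For mdx/miR-133b-/- against miR-133b-/-, the comparison by which the listed genes differ, the log2 differences were -3.27 for Ces1d, -1.07 for Aldoa, -0.99 for Hk2, -0.89 for Pfkm, -0.83 for Mdh2 and -0.82 for Cpt2. These are given with no test.

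**Figure D3:**
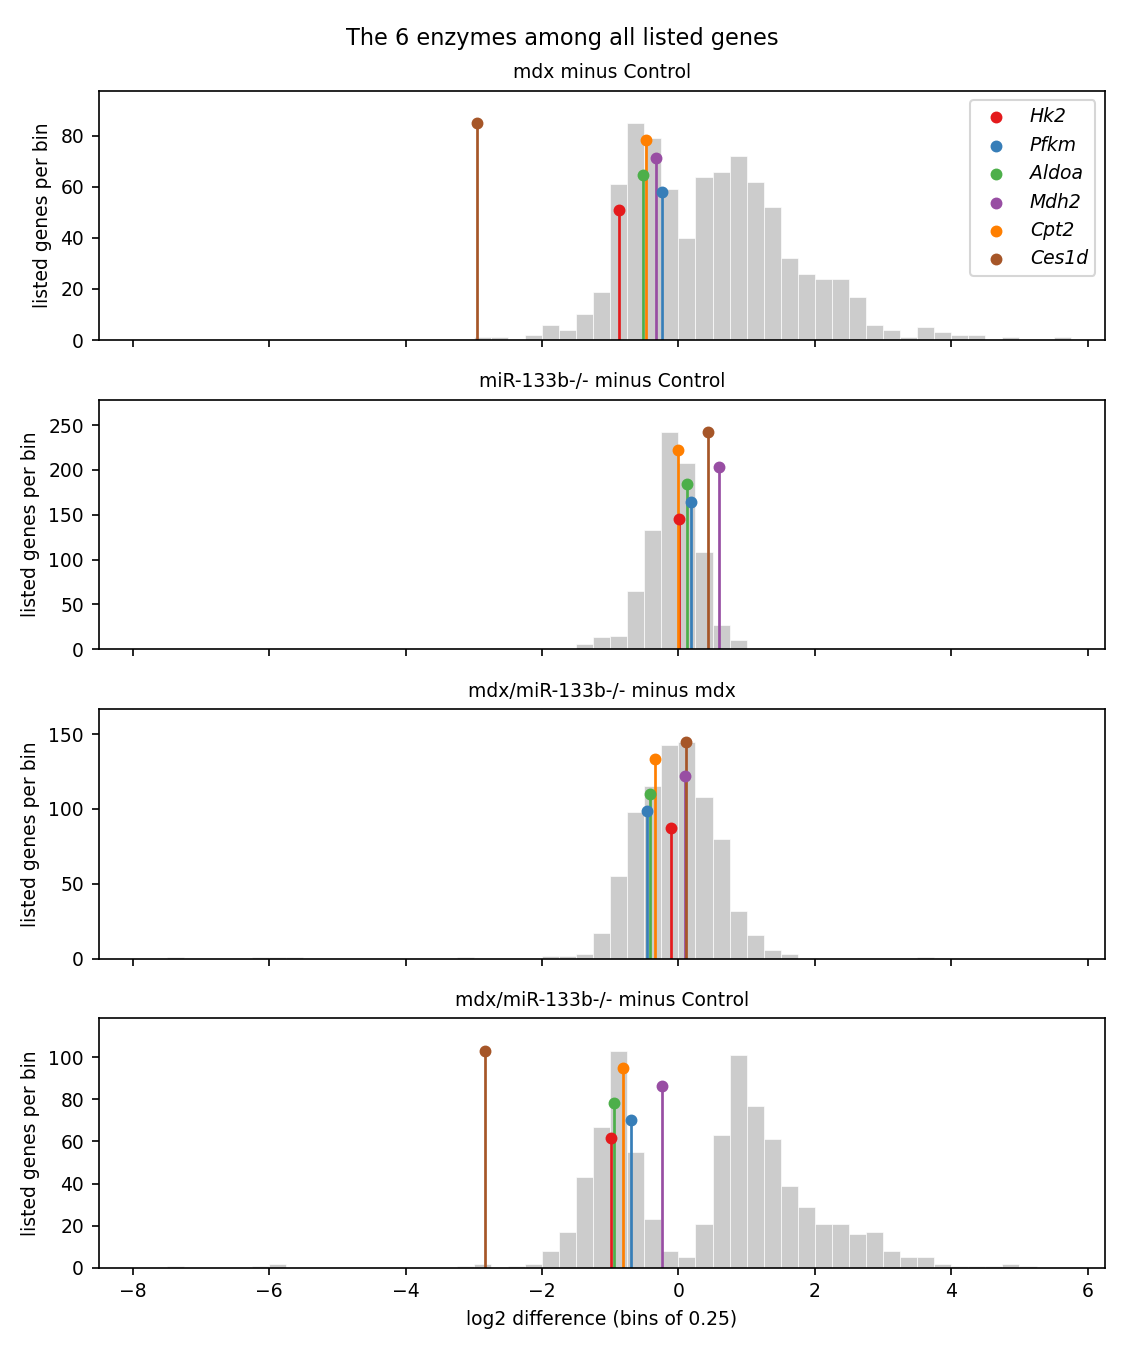
Histograms (grey, bins of 0.25) of the log2 differences of all 831 listed genes in the 4 tested comparisons, with the 6 enzymes as coloured pins whose heights carry no value. In mdx minus Control the pins lie in the lower of the 2 humps and Ces1d at its far end; in miR-133b-/- minus Control they lie from -0.00 to 0.59.

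Other genes of the same routes came from 7 lists of 165 genes chosen by function, of which 27 are listed, 21 of them besides the 6 enzymes. In mdx against Control 8 of the 21 fell and 4 rose, where 21.7% of the listed genes were called lower and 44.5% higher. Of the glucose uptake and glycolysis list, 8 of 32 genes are listed. Hk1, the hexokinase of most tissues, rose 1.99-fold (limma adjusted p = 0.00396), to 291 ± 34.9 scaled reads in mdx, against 145 ± 9.45 in Control, where Hk2 fell. Pfkp, the platelet form of phosphofructokinase, rose 1.58-fold (0.66, adjusted p = 0.0329), to 276 ± 11.4 in mdx, against 176 ± 33.8 in Control. Gpd2, the mitochondrial glycerol phosphate dehydrogenase, fell (-0.83, adjusted p = 0.00153), while Slc2a4, the insulin-responsive glucose transporter, stood at -0.50 and Ldhb, a lactate dehydrogenase subunit, at -0.33.

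Pyruvate entry and the citrate cycle had 7 of 31 genes listed. Mpc2, a subunit of the mitochondrial pyruvate carrier, fell (-0.45, adjusted p = 0.0396), as did Pdk2, a kinase that restrains pyruvate dehydrogenase (-0.66), and Pcx, pyruvate carboxylase (-0.69). Idh3b (-0.32), Suclg1 (-0.39) and Fh1 (-0.34), all of the cycle itself, did not pass, as Mdh2 did not. Among 10 genes of the malate-aspartate shuttle and malic enzymes, the cytosolic Me1 fell (-0.92, adjusted p = 0.00595) and the mitochondrial Me2 rose (1.25, adjusted p = 0.000649), with Got1, the cytosolic aspartate aminotransferase, at -0.37. In miR-133b-/- against Control, Mpc2 was at 0.62 (adjusted p = 0.335), close to Mdh2. For Mpc2, mdx/miR-133b-/- was only 1.13-fold below Control, so its high miR-133b-/- values took part in its listing, as for Mdh2. The likeness of both genes is therefore not independent of the selection.

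Of 30 genes of fatty acid uptake and oxidation, Cpt2, Crat and Echs1 are listed. Crat, carnitine acetyltransferase, fell (-0.52, adjusted p = 0.0176), and Echs1, a hydratase of the oxidation cycle, was at -0.38 (adjusted p = 0.0569). Of 30 genes of lipid ester storage and hydrolysis, Lipa, the lysosomal acid lipase, rose (0.71, adjusted p = 0.0165), while Plin5 (-0.24), of lipid droplets, and Dgat2 (-0.50), which makes triacylglycerol, did not pass. Both listed regulators of 17 fell: Ppara, a nuclear receptor for fatty acids (-1.19, adjusted p = 0.00531), and Klf15, a transcription factor of fasting metabolism (-0.95, adjusted p = 0.0363). None of 16 genes of glycogen use is listed.

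In mdx/miR-133b-/- against mdx 6 of the 21 fell and none rose, where 12% of the listed genes were called lower. These were Dgat2 (-0.95, limma adjusted p = 0.0377), Ldhb (-0.78, 0.0334), Got1 (-0.77, 0.0127), Echs1 (-0.62, 0.0217), Crat (-0.54, 0.0447) and Idh3b (-0.49, 0.0476). In all 6 the miR-133b-/- mean was less than 1.72-fold above the mdx mean. Low mdx/miR-133b-/- values thus took part in their listing, so these falls and their count are not independent of the selection. Slc2a4 (-0.80, adjusted p = 0.0622), Fh1 (-0.66, 0.0725), Hk1 (-0.66, 0.0977) and Plin5 (-0.67, 0.167) did not pass. How the calls of these single genes fared under the alternatives is not reported here. Over all listed genes the calls of this comparison numbered 162, against 80 with the GC and length trend removed. With 1 library left out they ran from 49 to 197. In mdx/miR-133b-/- against Control 16 of the 21 fell and 3 rose, Pfkp, Me2 and Lipa, where 36.9% of the listed genes were called lower and 54.3% higher. As for the 6 enzymes, the selection of the listed genes favoured a difference from Control, so these counts are not independent of it. In miR-133b-/- against Control and in the interaction none of the 21 was called.

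**Figure D4:**
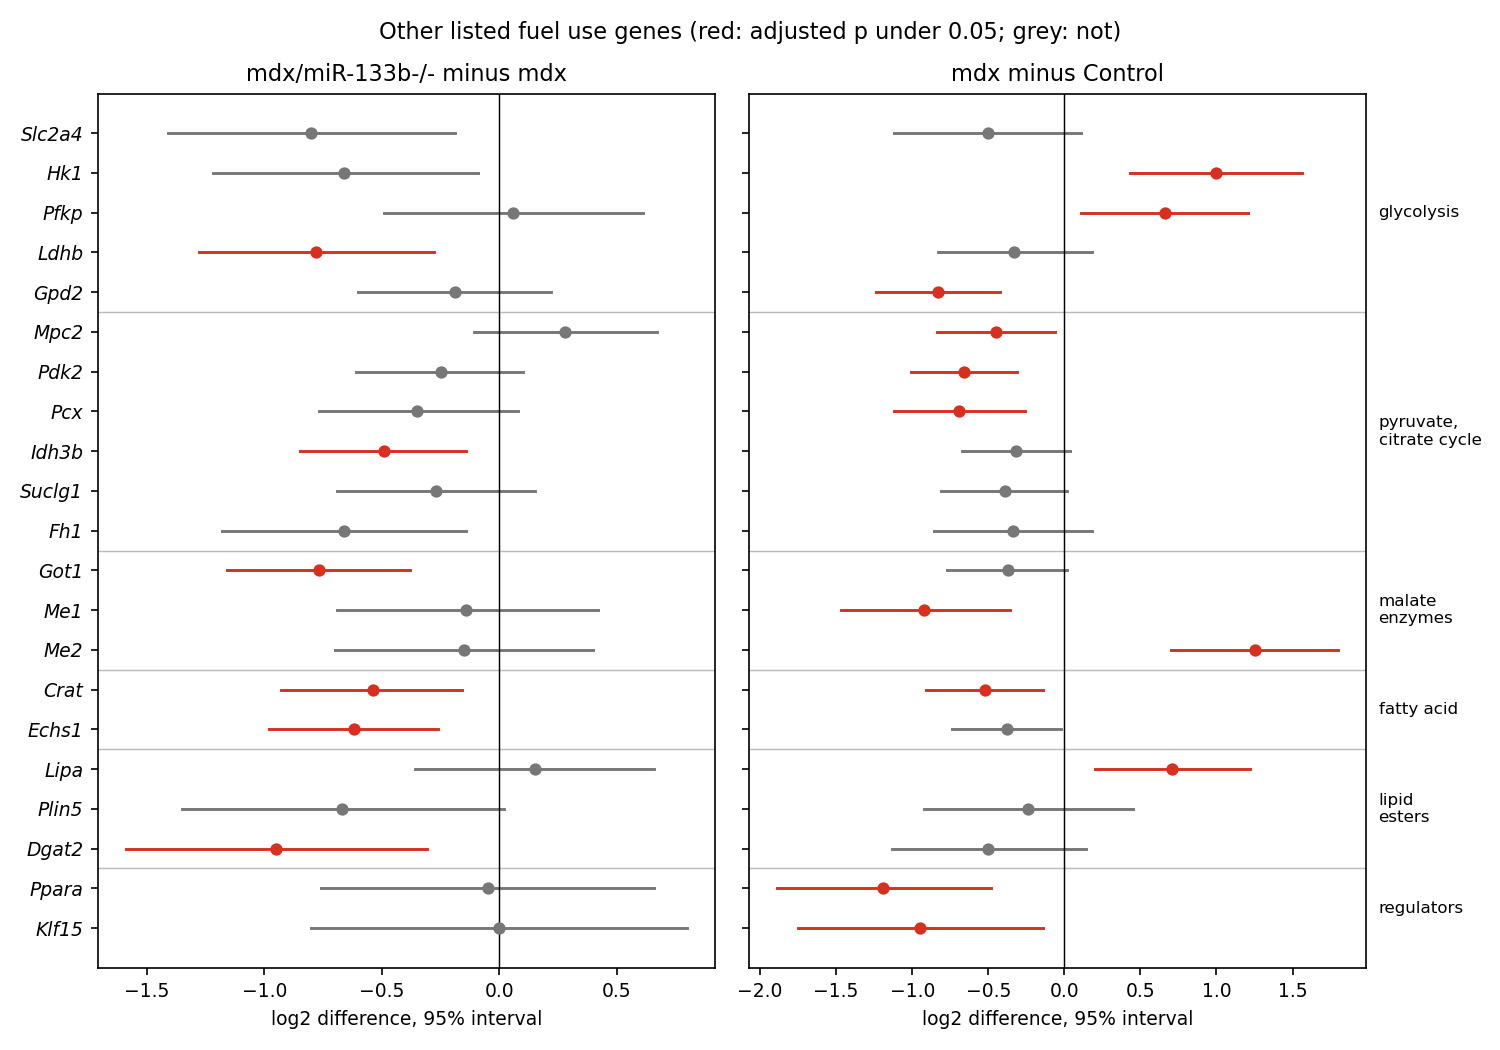
Log2 differences (points) with 95% intervals (lines) of the 21 other listed fuel use genes, grouped by list, for mdx/miR-133b-/- minus mdx and mdx minus Control; red marks a limma adjusted p under 0.05. The 6 red points on the left are all below 0, and on the right 8 are below and 4 above.

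The genes with the most similar profiles were sought among 782 listed genes by the root mean square difference of log2 values, centred per gene, over the 16 libraries, which are the same for both genes of a pair. Nearest to Hk2 were Wipf3 (0.26) and Rcan2 (0.27), to Pfkm Ccdc9b (0.17) and Smyd2 (0.20), and to Aldoa Mmab (0.17) and Map2k3 (0.18). Nearest to Mdh2 were Mpc2 (0.16) and Ginm1 (0.20), and to Cpt2 Map2k3 (0.16) and Bola3 (0.18). Ces1d had no close neighbour, with Dach2 at 0.83 and Dusp26 at 0.84. Mpc2 averaged 2281 ± 311 scaled reads in mdx/miR-133b-/-, 1877 ± 204 in mdx, 4039.8 ± 1221 in miR-133b-/- and 2559.7 ± 181 in Control, the same order of groups as Mdh2. High miR-133b-/- values took part in the listing of both genes, so this shared order is not independent of the selection. Among the 6 enzymes, Aldoa and Cpt2 were the closest pair (0.20), with 8 other genes nearer to each of them.

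Whether reads were counted by strand is not given in the sources used here. Values are therefore uncertain where genes overlap in GENCODE M21: Hk2 with Gm17034, Pfkm with Senp1 and Gm26513, Aldoa with Fam57b, and Ces1d with Gm45909. Aldoa also has a neighbouring gene model of the same name and Ces1d has close relatives in its gene cluster, so reads could have been split among copies.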

How the data were processed

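HISAT2, HTSeq and the build GRCm38 are named in the submitters' processing notes, while versions, settings and strand use were not given in the sources used here. RNA was isolated with an Aurum kit and treated with DNase, per the labels' protocols. The deposited signal values are whole reads multiplied by 1 factor per library (0.459 to 1): divided by it, 100% of values were whole to within 0.001 read. Symbols, coordinates, transcripts and 3′ UTRs came from GENCODE M21, which held all 831 identifiers.

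Log2(value + 1) was fitted with limma 3.58.1 in R 4.3.3, using group means over the 16 libraries, moderated variances with a trend, Benjamini-Hochberg adjustment over 831 genes at 0.05 and no filter. This scale understates changes of low genes such as Ces1d. Intervals are at 95%. The fit was tested on simulated data. Levels per kilobase use 1 transcript per gene. The GC content of the 6 transcripts ran from 48.5% to 57.3% (listed median 49.7%).

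The 24 pairs of libraries within groups differed by more than sampling noise (chi-square per degree of freedom at least 38.4). No enzyme had a library standing apart from its group by Dixon's test (24 groups of 4, critical value 0.829).

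The members and all lists were chosen with earlier results of these data known. Named genes are the 6 enzymes, all listed genes of the 7 lists, the listed cell type markers, and the 2 nearest profiles per enzyme, leaving out predicted gene models and genes with a mean under 50. Alternatives covered the scaling factors, pseudocounts, a minimum mean, the variance trend, fits on 2 groups, a replicate block, a GC and length trend, limma-voom and leaving out each library.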

Additional observations from a re-analysis of the deposited data

How the results depend on the processing

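The deposited table holds a selected list of genes, so library sizes and composition could not be estimated from all genes, and the depth behind the low Ces1d values limits their precision. Of 577 values of the 6 enzymes under the alternatives, 535 kept their direction and their side of the threshold, 9 lost a call, 7 gained one and 26 changed sign; the cause was not tested. The 2 planned count models on the unscaled reads were not run, fits on the libraries of 2 groups alone do not apply to the interaction, and Ces1d has no value under a minimum mean of 100.

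The number of genes called in mdx/miR-133b-/- against mdx was 162; it was 80 with the GC and length trend removed, 54 with the replicate block and that trend removed together, and 49 to 197 when 1 library was left out, with the fewest without mdx/miR-133b-/- 4 (49), mdx 3 (56), mdx/miR-133b-/- 3 (70), mdx 1 (71) and mdx 4 (84). In the interaction it was 8, and 4 with a minimum mean of 100, 14 with relative log expression factors, 5 with the GC and length trend removed, and 7 to 110 when 1 library was left out (110 without miR-133b-/- 2, 15 without mdx/miR-133b-/- 1). The numbers in the title codes did not pair the libraries (24 correlations of same-numbered libraries from -0.28 to 0.25). With the replicate block alone, the genes called numbered 541 in mdx against Control (550 without it), 0 in miR-133b-/- against Control, 120 in mdx/miR-133b-/- against mdx, 749 in mdx/miR-133b-/- against Control (758 without it) and 7 in the interaction.

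In mdx against Control, the Aldoa call was lost with the GC and length trend removed (-0.29, limma adjusted p = 0.104 with the block too) and without each of 5 libraries (-0.51 to -0.45). Pfkm (-0.60, adjusted p = 0.0294), Mdh2 (-0.69, 0.00525) and Cpt2 (-0.84, 0.00554) were called lower with relative log expression factors, as were Mdh2 (-0.33, 0.0151) and Cpt2 (-0.48, 0.00205) in fits on these 2 groups alone. The signs that turned belonged mostly to differences near 0. In miR-133b-/- against Control, Cpt2 was at 0.15 with relative log expression factors, 0.02 with the GC and length trend removed, with or without the block, and 0.01 with limma-voom. Leaving out 1 library, it ran from -0.20 to 0.26, Hk2 from -0.19 to 0.26 and Aldoa from -0.00 to 0.29. In mdx/miR-133b-/- against mdx, Aldoa was at 0.02 with the GC and length trend removed, with or without the block, and Ces1d ran from -0.27 to 0.51 when 1 library was left out. In mdx/miR-133b-/- against Control, Mdh2 was at 0.36 with that trend removed, with or without the block (limma adjusted p = 0.0597 with it). In the interaction, leaving out 1 library took Hk2 from -0.38 to 0.07 and Ces1d from -0.71 to 0.08.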

Other observations

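Together the 6 enzymes took 5.99% ± 0.926 of the listed reads in mdx/miR-133b-/-, 6.54% ± 0.381 in mdx, 7.01% ± 1.27 in miR-133b-/- and 6.29% ± 0.749 in Control (SD, n = 4 each), with Aldoa and Pfkm giving most of it. These shares overlap between all groups, and they are shares of a selected list whose other genes also differ between groups.

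The spread between libraries differed by group. The median SD of a listed gene on the log2 scale was 0.38 in mdx/miR-133b-/-, 0.21 in mdx, 0.43 in miR-133b-/- and 0.27 in Control. Pfkm (0.11, 0.03, 0.31 and 0.35 in the same order of groups) and Cpt2 (0.20, 0.05, 0.57 and 0.07) were tightest in mdx, and Ces1d was widest there, at 1.11.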
